A study of Homo sapiens with 6 samples.

Results

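Kasumi-1 is an established human line of acute myeloid leukaemia in which the t(8;21) translocation joins RUNX1 to RUNX1T1. RNA was sequenced from 3 Kasumi-1 libraries in which SETD8 had been knocked out by CRISPR/Cas9 (guide sgSETD8, genotype SETD8 knockout) and from 3 Kasumi-1 libraries that had received the non-targeting guide sgNT (genotype WT, called control here). SETD8, whose current symbol is KMT5A, is the methyltransferase that places a single methyl group on lysine 20 of histone H4. All cells were grown in serum-containing medium with antibiotics, the labels name no ligand, inhibitor or other agent, and the treatment label of all 6 libraries names the knockout by CRISPR/Cas9. Whether libraries 1 to 3 of a group came from different cultures, guides or clones is not in the labels. The p-values therefore describe the spread between these samples only, and that spread may be technical.

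The genes described here are the G protein coupled receptors, the heterotrimeric G proteins and the enzymes and regulators that act directly on or below them. They were chosen by symbol: every protein-coding gene of the deposited table whose name matched a fixed pattern (such as GPR, ADGR, P2RY, GNA, RGS, PDE or PRKC followed by a number or letter). The pattern took 107 of the 7983 listed genes, 53 receptors and 54 signalling parts. GENCODE release 29 holds 284 protein-coding genes with such a symbol, 161 receptors and 123 parts, so 37.7% of them were in the table, as were 35.2% of all 19951 annotated protein-coding genes. The table holds only genes with a p-value of at most 0.049998 in the authors' own comparison of these 6 libraries, so the members were in effect selected by the same contrast. The other 177 genes were not analysed here, and nothing can be said of their change.

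A G protein coupled receptor that binds its ligand at the cell surface makes the alpha subunit of a G protein exchange GDP for GTP, and the alpha subunit and the beta-gamma pair then act on separate targets. Gs and Gi alpha subunits raise and lower cyclic AMP through the adenylyl cyclases, Gq acts through phospholipase C beta and protein kinase C, and the alpha subunits of the GNA12 and GNA13 class act on the actin cytoskeleton. RGS proteins speed up GTP hydrolysis, GRK kinases and arrestins silence the receptor, and phosphodiesterases degrade the cyclic nucleotides. In myeloid cells these receptors are known for sensing chemoattractants, nucleotides, lipids and histamine.

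KMT5A, the targeted gene, had 879.7, 933 and 939 normalized reads in the knockout libraries 1, 2 and 3, against 1191, 1212 and 1255 in the control libraries 1, 2 and 3. It was lower in all 3 knockout libraries (log2 fold change -0.41, limma-trend adjusted p = 5.65e-05), and most of the transcript signal was still present. Reads in listed genes ran from 11721821 to 12557974 in knockout libraries and from 10966349 to 11690249 in control libraries. Of 16 symbols written as markers of a t(8;21) blast, 15 were listed, and the other, CD13, is another name of the listed ANPEP. Of the 15, 10 were called higher, 3 lower (MPO, KIT and IL3RA) and 2 not (RUNX1T1 and CD34). Granule genes split, with MPO at 1541 ± 27.3 in knockout and 12254 ± 373 in control cells, PRTN3 at 1754 ± 53.4 in knockout and 58.2 ± 8.27 in control cells, AZU1 at 305 ± 56.6 in knockout and 26.3 ± 5.57 in control cells and ELANE at 35.7 ± 11.7 in knockout and 8.24 ± 3.64 in control cells (mean ± SD, n = 3 each). CD33 was at 990.0 ± 35.3 in knockout and 435 ± 53.6 in control cells, CEBPE at 526 ± 25.5 in knockout and 218 ± 30.3 in control cells, RUNX1T1 at 3054 ± 123 in knockout and 2760 ± 75.3 in control cells and KIT at 43551 ± 793 in knockout and 60704 ± 955 in control cells. The summed level of the 15, most of it KIT, was 61577 to 62915 in knockout libraries and 83583 to 86859 in control libraries. Markers of other cells were listed in part: 4 of 9 monocyte markers summed to 1363 to 1605 in knockout and 1157 to 1323 in control libraries, and 3 of 5 B cell markers to 726 to 796 in knockout and 199 to 230 in control libraries. Of the T or NK cell markers 3 of 8 were listed, at 1265 to 1518 in knockout and 1037 to 1070 in control libraries, with CD2 at 0 in all 3 control libraries. The erythroid or megakaryocyte markers had 3 of 10 listed, at 635 to 649 in knockout and 487 to 504 in control libraries, and of 7 stromal or endothelial markers PDGFRB alone was listed, at 25.0 to 36.7 in knockout and 2.04 to 8.92 in control libraries. The part of these shifts in the results on receptors was not tested.

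Values are normalized read counts, that is, reads scaled by a size factor of the library, given in the order knockout 1, 2 and 3 and then control 1, 2 and 3. Each log2 fold change sets knockout over control after adding 1 to every value, a step that makes changes of low genes smaller. The selection of the table by p-value in the same libraries can act the other way. A gene was called at a limma-trend adjusted p below 0.05. Of the 107 members, 103 had a mean of at least 10 and were tested: 50 were called higher, 51 were called lower and 2 were not called (ADGRD1 and GNAS). Among all tested protein-coding genes 94.2% were called, 48.1% higher and 46.1% lower, as the selection of the table made near certain, so nothing is read from the share of members called. In 99 of the 103 tested members the 3 knockout values did not overlap the 3 control values, where 95.7% of tested protein-coding genes did not overlap. The median log2 fold change was -0.22 over the members and 0.16 over tested protein-coding genes. In bulk RNA, fewer cells that express a gene and less RNA of it per cell cannot be told apart.

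Receptors split evenly, with 25 higher and 24 lower of 50 tested and a median log2 fold change of -0.10. Signalling parts also split evenly, with 25 higher and 27 lower of 53 and a median of -0.22. The receptor split was not even under another setting. After the subtraction of neighbouring genes described below, 12 receptors were higher and 22 lower, and 13 parts were higher and 16 lower. Over all tested genes that setting gave 2247 higher and 2447 lower. A change of at least 1 on the log2 scale was reached by 9 higher and 14 lower receptors and by 4 higher and 11 lower parts, and by 7.25% of tested protein-coding genes upward and 8.7% downward (8.34% and 10.7% of all tested genes). Such changes went with low levels. They were reached by 14 of 19 receptors with a mean from 10 to 100 (73.7%), 7 of 18 from 100 to 500 (38.9%) and 2 of 13 above 500 (15.4%). Among signalling parts the shares at these levels were 66.7% of 12, 38.5% of 13 and 7.14% of 28, and among tested protein-coding genes 70.8% of 742, 18.8% of 1743 and 5.49% of 4352. These level classes were chosen after the values were seen. The table required a p-value of at most 0.049998 in the same contrast, which a low gene reaches only with a larger change. Nothing is therefore read from this gradient.

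**Figure D1:**
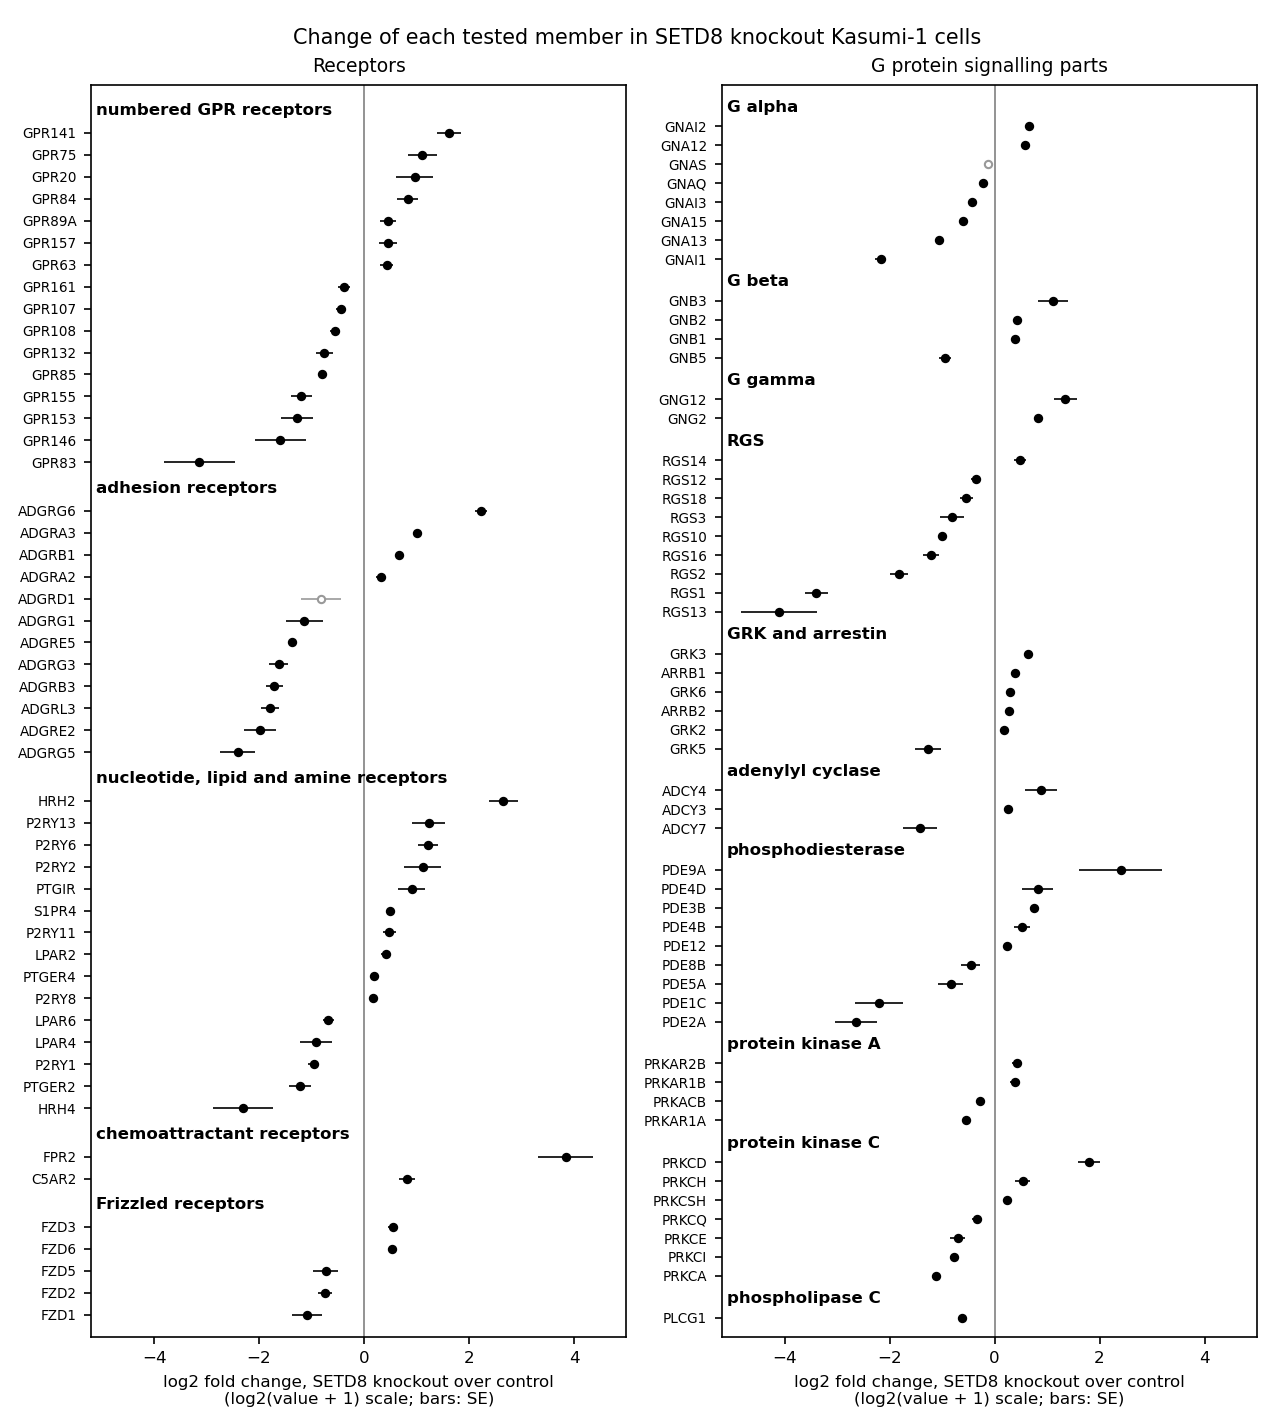
Log2 fold change (SETD8 knockout over control, log2(value + 1) scale) of the 103 tested members, receptors on the left and G protein signalling parts on the right, grouped by role and ordered by size. Points are the fitted values from 3 libraries a group, bars are standard errors, and open points are the 2 members not called. Of the 9 tested RGS genes 8 lie below 0, and the points at the far left are RGS13 at -4.11, RGS1 at -3.40 and GPR83 at -3.13.

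Fold changes were also compared with those of the surrounding genes on the chromosome. Among 101 tested members with at least 5 other tested genes within 5 Mb, 76 had the sign of the median of those neighbours (75.2%), and among tested protein-coding genes 4396 of 6784 did (64.8%). With that median subtracted from the knockout libraries, 55 of 99 called members kept their direction and their call, 40 were no longer called, and 4 were called in the opposite direction. GPR75 and ADGRL3 had fewer than 5 neighbours, were left as they were and are included in the receptor counts above. In what follows, a gene's log2 fold change after this subtraction is called its neighbour-adjusted value, and it is given where it ends or turns a call. The neighbours were listed genes only, selected by the same contrast, so genes outside the table are missing from each median. The median was subtracted as if it had no error. Why neighbours moved together was not tested.

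**Figure D2:**
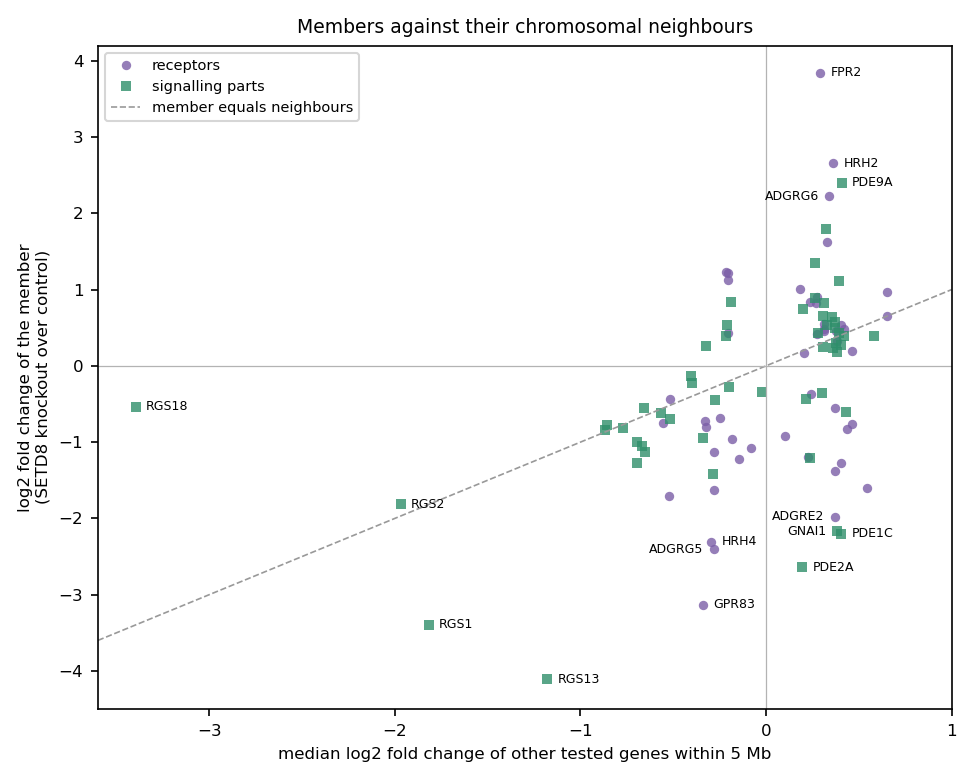
Log2 fold change of each member with at least 5 neighbours (vertical axis) against the median log2 fold change of the other tested genes within 5 Mb (horizontal axis), SETD8 knockout over control, with receptors as circles and signalling parts as squares. On the dashed line a member equals its neighbours. FPR2, HRH2, ADGRG6 and GNAI1 lie far from the line. RGS1, RGS2, RGS13 and RGS18 stand apart on the left because they are one another's neighbours, and RGS18 lies above the line.

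Of 15 tested receptors for amines, nucleotides and lipids, 10 rose and 5 fell, with a median log2 fold change of 0.42, where 48.1% of tested protein-coding genes were called higher. In the neighbour-adjusted values 4 were higher and 6 lower, with a median of 0.067. HRH2, the Gs-coupled histamine receptor that raises cyclic AMP (chromosome 5, 175658030 to 175710756), had 137, 131 and 122 normalized reads in knockout cells, against 18.4, 28.2 and 14.9 in control cells. The groups lie far apart, with the lowest knockout library more than 4 times the highest control library (log2 fold change 2.65, SE 0.27, limma-trend adjusted p = 4.59e-08). HRH4, a Gi-coupled histamine receptor of blood cells, went the other way at 2.08, 2.98 and 4.67 in knockout and 19.4, 15.6 and 23.8 in control cells (log2 fold change -2.30, SE 0.57, limma-trend adjusted p = 0.00256). All 3 knockout libraries lie under 5 normalized reads, so that fold change is imprecise. Without control 1 or control 3, HRH4 fell under the level filter and was not tested.

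Among nucleotide receptors, P2RY13, an ADP receptor, had 88.6, 82.4 and 56.0 in knockout and 42.9, 38.9 and 17.8 in control cells (log2 fold change 1.23, SE 0.32, limma-trend adjusted p = 0.00326). P2RY6, a UDP receptor that signals through Gq, had 197, 195 and 170.0 in knockout and 63.4, 82.6 and 96.1 in control cells (log2 fold change 1.22, SE 0.19, limma-trend adjusted p = 1.24e-05). Neither pair of groups overlaps, though control 3 is the lowest P2RY13 library and the highest P2RY6 control library. P2RY2, a receptor for ATP and UTP next to P2RY6 on chromosome 11, rose by a log2 fold change of 1.12 and P2RY11, an ATP receptor, by 0.48, while P2RY1, the Gq-coupled ADP receptor, fell to 337, 296 and 288 in knockout, against 645, 569.7 and 579 in control cells (log2 fold change -0.96). P2RY11 shares exons with the readthrough PPAN-P2RY11, so its reads are uncertain. P2RY12, the ADP receptor of platelets, was under the level filter, at 16.7, 11.9 and 6.54 in knockout and 5.11, 0.972 and 1.98 in control cells.

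The prostaglandin E2 receptors PTGER2 and PTGER4, which both raise cyclic AMP through Gs, differed in level and direction. PTGER2 fell, with 60.5, 73.5 and 57.9 in knockout cells, against 119, 204 and 139 in control cells (log2 fold change -1.22, SE 0.21, limma-trend adjusted p = 7.28e-05), and control 2 is well above the other controls. PTGER4, one of the most abundant receptors here, had 3829, 4014 and 4026 in knockout and 3368, 3528 and 3506 in control cells, a small rise (log2 fold change 0.19, SE 0.055, limma-trend adjusted p = 0.00827). Its neighbour-adjusted value was -0.27 and was called lower (limma-trend adjusted p = 0.000519), so its direction depends on that setting. PTGIR, the prostacyclin receptor, rose (log2 fold change 0.91).

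Lysophospholipid receptors moved in both directions. LPAR2 and S1PR4, the lysophosphatidic acid and sphingosine 1-phosphate receptors of that symbol, rose by 0.42 and 0.49 on the log2 scale, and LPAR6 and LPAR4 fell by 0.68 and 0.92. P2RY8, a receptor known for confining germinal centre B cells, rose by 0.17. S1PR3 had 11 reads over the 3 knockout libraries and 0 over the 3 control libraries, at least 3.64-fold higher when the control group is set at a floor of 3 reads. Such floors and the count intervals given for other low genes cover counting error only. The neighbour-adjusted values ended the calls of LPAR2 (0.14), P2RY11 (0.17), P2RY8 (-0.032), PTGIR (0.63) and S1PR4 (0.067). With 1 library left out, calls ended for LPAR4 without knockout 2 or 3 or control 1 or 2 (limma-trend adjusted p from 0.0645 to 0.148), P2RY2 without knockout 2 or control 2 (0.0698 and 0.0627) and P2RY8 without knockout 2, control 1 or control 3 (0.118, 0.108 and 0.0606).

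Both listed chemoattractant receptors rose. FPR2, a formyl peptide receptor of phagocytes (chromosome 19, 51752026 to 51770526), had 56.3, 44.7 and 45.8 in knockout cells, against 2.04, 0.972 and 5.95 in control cells, where it was close to absent (log2 fold change 3.84, SE 0.53, limma-trend adjusted p = 3.09e-06). C5AR2, a receptor for complement C5a that does not couple to G proteins, had 221, 267 and 276 in knockout and 152, 124 and 155 in control cells (log2 fold change 0.82, SE 0.15, limma-trend adjusted p = 0.000117). The lowest knockout library exceeds the highest control library for both genes. FPR2 is one of several members described here for the size of their values, which were chosen after the values were seen, as were HRH4, P2RY1, PTGER4, GPR83, the adhesion receptors of chromosome 16, ADGRE5, GNAS, GNAI3, RGS13, RGS18, PDE1C, PDE2A and PDE9A.

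Adhesion receptors carry long extracellular regions that bind other cells or matrix. Of 12 tested, 4 rose, 7 fell and 1 was not called, with a median log2 fold change of -1.25. Among tested protein-coding genes 46.1% were called lower, and the median was 0.16. ADGRG6, known for its part in Schwann cell myelination, had 751, 691 and 667 in knockout and 148, 140.0 and 161 in control cells (log2 fold change 2.23, SE 0.11, limma-trend adjusted p = 6.55e-13). Every knockout library lies above 4 times every control library. ADGRA3, ADGRB1, a receptor for apoptotic cells that is also known from synapses, and ADGRA2, a WNT7 co-receptor of brain vessels, rose by 1.01, 0.66 and 0.32 on the log2 scale.

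Among the listed receptors, ADGRE5, which encodes the leukocyte antigen CD97, had the highest level per kb of gene length in control cells. It had 2312, 2490 and 2432 in knockout and 5892, 6483 and 6382 in control cells (log2 fold change -1.37, SE 0.058, limma-trend adjusted p = 1.99e-14), and per kb 448 ± 16.9 in knockout and 1162 ± 58.7 in control cells (SD, n = 3 each). ADGRE2, a close relative found on myeloid cells that lies with it in a stretch of 398 kb on chromosome 19, had 14.6, 33.8 and 20.5 in knockout and 92.0, 88.5 and 85.2 in control cells (log2 fold change -1.98, SE 0.30, limma-trend adjusted p = 1.28e-05). Of 7 other listed genes between them, 5 rose and 2 fell, and the neighbour-adjusted values were larger in size, -1.74 for ADGRE5 and -2.35 for ADGRE2. ADGRE2 shares 1354 bases of exon with ZNF333 on the other strand, so its reads are less certain.

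ADGRL3, a latrophilin that binds teneurins and FLRT proteins at synapses, had 74.0, 65.5 and 80.3 in knockout and 240.1, 253 and 275 in control cells (log2 fold change -1.79, SE 0.17, limma-trend adjusted p = 8.82e-09). ADGRB3, a synaptic receptor for C1q-like proteins, had 143, 101 and 99.0 in knockout and 349, 441 and 333 in control cells (log2 fold change -1.71, SE 0.16, limma-trend adjusted p = 1.21e-08). In neither do the groups come close to each other.

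On chromosome 16, 3 adhesion receptors lie side by side over 147 kb (57542421 to 57689378) with no other annotated protein-coding gene between them, and all 3 fell. ADGRG5 had 17.7, 8.94 and 13.1 in knockout and 71.5, 67.1 and 77.3 in control cells (log2 fold change -2.40). ADGRG1, known as GPR56 and as a marker of stem cell fractions in acute myeloid leukaemia, had 20.8, 17.9 and 14.9 in knockout and 49.1, 28.2 and 46.6 in control cells (log2 fold change -1.13). ADGRG3, known as GPR97 and found on granulocytes, had 73.0, 105 and 70.0 in knockout and 250.4, 242 and 268 in control cells (log2 fold change -1.63). The groups do not overlap for any of the 3, and ADGRG1 is the lowest and least certain. Its call ended without control 1 or control 3 (limma-trend adjusted p = 0.077 and 0.0633) and in the neighbour-adjusted value of -0.85.

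ADGRD1 was not called (log2 fold change -0.82, limma-trend adjusted p = 0.115), with control 2 at 66.1 and all other libraries from 18.8 to 28.6. It was called lower in its neighbour-adjusted value of -1.26, without control 3 (log2 fold change -1.11, limma-trend adjusted p = 0.0417) and with p-values adjusted over the tested genes of the table alone (0.0435). ADGRD2 was under the level filter, at 7.30, 17.9 and 17.7 in knockout and 3.07, 1.94 and 4.95 in control cells. The neighbour-adjusted values ended the calls of ADGRB1 (0.008) and ADGRA2 (-0.064), which lie on chromosome 8, and that of ADGRA2 also ended without control 1 (limma-trend adjusted p = 0.0577).

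Frizzled receptors, which bind Wnt proteins and act mostly through Dishevelled, were 5 in the table. Of these 2 rose and 3 fell, where 48.1% of tested protein-coding genes were called higher and 46.1% lower. FZD1 had 40.6, 63.5 and 28.0 in knockout and 106, 103 and 65.4 in control cells (log2 fold change -1.08, SE 0.29, limma-trend adjusted p = 0.00411). FZD2 had 197, 285 and 221 in knockout and 391, 368 and 407 in control cells (log2 fold change -0.74, SE 0.13, limma-trend adjusted p = 8.49e-05). FZD5 had 44.8, 78.4 and 67.2 in knockout and 111, 81.7 and 119.9 in control cells (log2 fold change -0.73, SE 0.24, limma-trend adjusted p = 0.0189). The lowest control library is only just above the highest knockout library for FZD1 and FZD5, and the gap is wider for FZD2. FZD3 had 602, 611 and 587 in knockout and 435, 426 and 376 in control cells (log2 fold change 0.54, SE 0.096, limma-trend adjusted p = 7.35e-05), and FZD6 rose by a similar 0.54 on the log2 scale. Per kb of gene length, FZD6 made up 68.5% of the summed level of the 5 genes in knockout and 51.2% in control cells, and FZD2 20.5% in knockout and 37.0% in control cells.

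Only FZD1 kept its call in the neighbour-adjusted values (log2 fold change -0.999). The others were at -0.19 for FZD2, 0.23 for FZD3, -0.40 for FZD5 and 0.13 for FZD6. The call of FZD5 also ended without knockout 1, control 1 or control 3 (limma-trend adjusted p = 0.12, 0.081 and 0.101). Of 62 written genes of Wnt signalling outside the pattern, 22 were listed. Their median log2 fold change was -0.25, beside 0.16 for tested protein-coding genes (48.1% higher, 46.1% lower). Of the 22 genes, 10 rose and 11 fell. They included LRP5, the Wnt co-receptor, at 2513 ± 159 in knockout and 1269 ± 88.2 in control cells (log2 fold change 0.99), TCF7L2, a nuclear effector, at 187 ± 8.65 in knockout and 354 ± 44.7 in control cells (-0.91), and WNT3, a ligand, at 84.3 ± 10.1 in knockout and 224 ± 26.0 in control cells (-1.40, n = 3 each).

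The receptors that carry only a GPR number, most of them without a settled ligand, were 16. Of these 7 rose and 9 fell, with a median log2 fold change of -0.41. Tested protein-coding genes had 48.1% called higher, 46.1% called lower and a median of 0.16. GPR141 had 131, 122 and 109 in knockout and 39.9, 44.7 and 31.7 in control cells (log2 fold change 1.63, SE 0.23, limma-trend adjusted p = 4.32e-06). GPR75 had 85.5, 77.5 and 56.0 in knockout and 26.6, 32.1 and 41.6 in control cells (log2 fold change 1.10, SE 0.28, limma-trend adjusted p = 0.00261). Both are orphan receptors, and in both the groups do not overlap, while GPR75 shares exons with the readthrough GPR75-ASB3 and GPR141 with EPDR1.

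GPR155, a lysosomal protein that senses cholesterol, had 78.2, 57.6 and 62.6 in knockout and 156, 131 and 169 in control cells (log2 fold change -1.20, SE 0.20, limma-trend adjusted p = 3.37e-05). The orphan GPR153 had 22.9, 22.8 and 42.0 in knockout and 56.2, 67.1 and 89.2 in control cells (log2 fold change -1.28, SE 0.30, limma-trend adjusted p = 0.00159). The control libraries of both are all higher than the knockout libraries. GPR83 had 4 reads over the knockout libraries and 61 over the control libraries, which corresponds to a ratio of 15.4 lower (exact 95% binomial interval 5.70 to 58.2).

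GPR84, a receptor for medium-chain fatty acids, rose by 0.83 on the log2 scale, and the orphans GPR20, GPR63 and GPR157 by 0.96, 0.43 and 0.45. GPR85, a conserved orphan receptor of the brain, fell to 1273, 1289 and 1211 in knockout, against 2180, 2231 and 2149 in control cells. GPR132, a proton- and lipid-sensing receptor of leukocytes, GPR161, a receptor of the primary cilium that restrains Hedgehog signalling, and GPR146 fell by 0.76, 0.37 and 1.60. GPR89A, a Golgi pH regulator with a near-identical copy in GPR89B, and GPR107 and GPR108, a related pair of membrane proteins, carry the name but are not classical receptors. They were at 0.46, -0.44 and -0.55.

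The neighbour-adjusted values ended the calls of GPR107 (0.075), GPR157 (0.14), GPR20 (0.32) and GPR89A (0.087). Leaving out 1 library ended the call of GPR157 in 5 of 6 cases, all but knockout 1 (limma-trend adjusted p from 0.0586 to 0.12). It ended that of GPR20 without knockout 2 or 3 or control 1 or 2 (0.0745 to 0.213). It also ended GPR146 without knockout 2 or control 3 (0.0656 and 0.08), GPR161 without knockout 1 or control 2 (0.101 and 0.0826) and GPR89A without knockout 2 or control 2 (0.0629 and 0.186). With a length trend removed, GPR161 (log2 fold change -0.20, limma-trend adjusted p = 0.268) and GPR20 (0.81, 0.0962) were not called.

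Of 108 further receptors of the class written as a list from textbook knowledge, 16 were in the table and 12 were tested. Of these 6 rose and 5 fell, with a median log2 fold change of 0.29, beside 0.16 for tested protein-coding genes (48.1% higher, 46.1% lower). CELSR2, an adhesion receptor of planar polarity, was at 1831 ± 257 in knockout and 701 ± 65.4 in control cells (log2 fold change 1.38, n = 3 each). LTB4R, the leukotriene B4 receptor, was at 521 ± 31.6 in knockout and 354 ± 28.5 in control cells (0.56), and ADRA2A, an adrenergic receptor coupled to Gi, at 40.7 ± 4.57 in knockout and 113 ± 12.0 in control cells (-1.45). CCR4, a chemokine receptor, was low in both groups, at 11.4 ± 8.09 in knockout and 31.0 ± 9.47 in control cells (-1.62).

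Among the G protein alpha subunits, the 3 Gi genes moved apart. GNAI1 (chromosome 7, 79768028 to 80226181) had 162, 156 and 173 in knockout cells, against 779, 762 and 678 in control cells (log2 fold change -2.17, SE 0.11, limma-trend adjusted p = 6.3e-13). GNAI2 had 10555, 10865 and 10357 in knockout and 6202, 6858 and 7108 in control cells (log2 fold change 0.66, SE 0.058, limma-trend adjusted p = 4.91e-09). GNAI3 had 2341, 2174 and 2011 in knockout and 2934, 2928 and 2937 in control cells (log2 fold change -0.43, SE 0.062, limma-trend adjusted p = 5.66e-06). The knockout libraries are all above the controls for GNAI2 and all below them for GNAI1 and GNAI3. Per kb of gene length, the 3 summed to 1471 ± 35.9 in knockout and 1017 ± 59.4 in control cells (SD, n = 3 each). GNAI2 made up 94.1% of that sum in knockout and 86.3% in control cells, GNAI3 5.44% in knockout and 10.6% in control cells, and GNAI1 0.459% in knockout and 3.02% in control cells. GNAI3 shares exons with GNAT2 and AMPD2, and its call ended with a trend on gene length removed (log2 fold change -0.062, limma-trend adjusted p = 0.874).

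GNA13, an alpha subunit that acts on the actin cytoskeleton, had 2312, 2387 and 2307 in knockout and 4903, 4671 and 4972 in control cells (log2 fold change -1.05, SE 0.056, limma-trend adjusted p = 1.11e-12). GNA12, its closest relative, rose to 1895, 2040 and 1854 in knockout, against 1322, 1230 and 1314 in control cells (log2 fold change 0.58). Their directions are opposite, with no overlap between groups for either. Genes around GNA13 on chromosome 17 had a median of -0.67, and its neighbour-adjusted value of -0.39 was still called (limma-trend adjusted p = 5.89e-06).

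GNA15, a Gq-class subunit restricted to blood cells, had 1910, 1758 and 1559 in knockout and 2499, 2764 and 2689 in control cells (log2 fold change -0.61, SE 0.071, limma-trend adjusted p = 2.96e-07), and the receptor gene S1PR4, which lies within the same 44.1 kb, moved upward. GNAQ fell by 0.22 on the log2 scale, but its neighbour-adjusted value was 0.18 and called higher (limma-trend adjusted p = 0.0187), and a length trend removed ended its call (-0.12, 0.12). GNAS, which encodes Gs alpha, was not called, at 16561, 15649 and 15684 in knockout and 16392, 18100 and 18126 in control cells, where knockout 1 lies within the control range (log2 fold change -0.13, SE 0.059, limma-trend adjusted p = 0.088). It was called lower with upper-quartile scaling (limma-trend adjusted p = 0.016), without knockout 1 or control 1 (0.0372 and 0.028) and with p-values adjusted over the table alone (0.0333). DESeq2 also called it lower (adjusted p = 0.0403), and it passed an adjusted p below 0.05 in the authors' own comparison. Its neighbour-adjusted value of 0.27 was called higher. Its reads also share exons with GNAS-AS1.

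Beta and gamma subunits form the partner of the alpha subunit, and 4 of 6 annotated beta genes and 2 of 11 annotated gamma genes were listed. Most of those listed rose, where 48.1% of tested protein-coding genes were called higher. GNB1 had 9115, 9026 and 9032 in knockout and 6711, 7014 and 7076 in control cells (log2 fold change 0.39, SE 0.053, limma-trend adjusted p = 3.12e-06). GNB2 had 2966, 2987 and 2826 in knockout and 2053, 2303 and 2179 in control cells (log2 fold change 0.43, SE 0.061, limma-trend adjusted p = 4.98e-06). All knockout libraries of both lie above the controls by about the same factor. GNB5, the beta subunit that pairs with a subfamily of RGS proteins, had 288, 231 and 288 in knockout and 467, 538 and 543 in control cells (log2 fold change -0.94, SE 0.12, limma-trend adjusted p = 7.13e-07). GNB3 was low and rose by 1.11. Per kb, the 4 genes summed to 2474 ± 30.0 in knockout and 1890 ± 74.9 in control cells, of which GNB1 was 57.1% in knockout and 57.2% in control cells.

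GNG2 had 1437, 1395 and 1402 in knockout and 795, 751 and 835 in control cells (log2 fold change 0.83, SE 0.071, limma-trend adjusted p = 3.01e-09). GNG12 had 130.3, 132 and 103 in knockout and 42.9, 54.4 and 44.6 in control cells (log2 fold change 1.34, SE 0.22, limma-trend adjusted p = 2.86e-05). Neither gamma gene shows overlap between groups, and together they summed to 247 ± 5.72 per kb in knockout and 134 ± 5.64 in control cells (SD, n = 3 each). Both kept their calls in the neighbour-adjusted values (1.02 and 1.08), as did GNB5 (-0.60). GNB1 (-0.036), GNB2 (0.036) and GNB3 (0.72) did not.

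RGS genes encode the proteins that turn alpha subunits off, and 10 of the 23 annotated ones were listed. Of the 9 tested, 8 fell and 1 rose, with a median log2 fold change of -0.99. Among tested protein-coding genes 46.1% were called lower, and the median was 0.16. In the neighbour-adjusted values 5 RGS genes were lower, 1 was higher and 3 were not called. RGS1 (chromosome 1, 192575727 to 192580031), which acts on Gi and Gq and is known for limiting chemokine responses in lymphocytes, had 60.5, 25.8 and 36.4 in knockout cells, against 402, 446 and 399 in control cells (log2 fold change -3.40, SE 0.22, limma-trend adjusted p = 4.04e-11). RGS2, which prefers Gq and is induced by many stimuli, had 151, 84.4 and 137 in knockout and 428, 446 and 408 in control cells (log2 fold change -1.82, SE 0.17, limma-trend adjusted p = 1.07e-08). RGS16 had 106, 125 and 113 in knockout and 259, 282 and 259.6 in control cells (log2 fold change -1.21, SE 0.15, limma-trend adjusted p = 5.61e-07). In all 3 the highest knockout library is well below the lowest control library, while knockout libraries 1 and 3 are above knockout 2 for RGS1 and RGS2.

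RGS10, the most abundant of the listed RGS genes per kb, had 536, 472 and 439.8 in knockout and 1053, 912 and 916 in control cells (log2 fold change -0.99, SE 0.092, limma-trend adjusted p = 1.07e-08). It made up 51.0% of the summed level per kb of the listed RGS genes in knockout and 52.5% in control cells. The sum itself was 755 ± 34.5 per kb in knockout and 1461 ± 81.8 in control cells (SD, n = 3 each). RGS14, a scaffold that also binds Ras, rose by 0.49 on the log2 scale and made up 15.5% of the sum in knockout and 5.68% in control cells. RGS12, a large relative with several binding domains, and RGS3 fell by 0.36 and 0.81. RGS17 had 28 reads over the knockout libraries and 2 over the control libraries, a ratio of 13.9 (exact 95% binomial interval 3.51 to 120), and was not tested.

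Of the 8 RGS genes that fell, 4 lie together on chromosome 1 between 192158457 and 192812283, a stretch of 654 kb that holds no other listed gene. RGS13, known from germinal centre B cells, had 0, 4.96 and 0 in knockout and 21.5, 35.0 and 36.7 in control cells. That is 5 reads in all against 94, a ratio of 18.9 lower (exact 95% binomial interval 7.83 to 59.7), and its log2 fold change of -4.11 became -4.96 without knockout 2. RGS18, a regulator of platelets and other myeloid cells, had 241, 238 and 263 in knockout and 415, 333 and 337 in control cells (log2 fold change -0.54, SE 0.12, limma-trend adjusted p = 0.00117). The fall was thus steep for RGS1, RGS13 and RGS2 and shallow for RGS18 at the left end of the stretch, with no overlap between groups for any of the 4. Summed per kb, the 4 genes were at 158 ± 22.1 in knockout and 439 ± 18.6 in control cells (SD, n = 3 each).

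The neighbours within 5 Mb of each RGS gene of the stretch are mostly the other 3. Subtracting them left RGS1 at -1.58 and RGS13 at -2.93, ended the call of RGS2 (0.15) and turned RGS18 to 2.86. The neighbour-adjusted values also ended the calls of RGS3 (-0.042) and RGS14 (0.12), and RGS10 was at -0.30 and still called. RGS3 lost its call without control 2 (limma-trend adjusted p = 0.0559) and RGS12 with a length trend removed (-0.16, 0.269).

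The bases just before the start of the 4 genes of the stretch are printed because these are neighbours that fell to different degrees and because Kasumi-1 cells carry a rearranged RUNX1. Each line gives the 250 bases before the start from RefSeq, build GRCh38.p14, on the plus strand and read from 5′ to 3′. The windows are chr1:192575523-192575772 for RGS1, chr1:192635897-192636146 for RGS13, chr1:192808789-192809038 for RGS2 and chr1:192158212-192158461 for RGS18. Capitals mark every match to TGTGGT, the core letters bound by RUNX proteins, or to its reverse complement.
RGS1: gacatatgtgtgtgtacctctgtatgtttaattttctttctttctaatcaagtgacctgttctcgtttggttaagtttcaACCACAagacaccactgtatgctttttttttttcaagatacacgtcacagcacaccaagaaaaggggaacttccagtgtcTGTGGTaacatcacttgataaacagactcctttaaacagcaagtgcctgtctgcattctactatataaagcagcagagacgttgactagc
RGS13: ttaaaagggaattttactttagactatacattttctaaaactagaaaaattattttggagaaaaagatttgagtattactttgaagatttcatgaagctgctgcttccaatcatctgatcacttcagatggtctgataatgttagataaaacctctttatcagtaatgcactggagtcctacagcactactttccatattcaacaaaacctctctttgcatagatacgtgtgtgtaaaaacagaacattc
RGS2: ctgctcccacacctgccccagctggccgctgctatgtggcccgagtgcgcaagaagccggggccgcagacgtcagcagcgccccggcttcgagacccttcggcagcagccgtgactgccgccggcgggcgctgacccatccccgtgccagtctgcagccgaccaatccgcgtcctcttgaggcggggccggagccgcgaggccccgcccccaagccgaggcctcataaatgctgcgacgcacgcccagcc
RGS18: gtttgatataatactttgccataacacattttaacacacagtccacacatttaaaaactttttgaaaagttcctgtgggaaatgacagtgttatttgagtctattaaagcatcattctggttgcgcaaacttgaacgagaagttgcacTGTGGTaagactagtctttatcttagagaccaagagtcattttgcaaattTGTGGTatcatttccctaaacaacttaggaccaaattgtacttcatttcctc
RGS1 has a match 170 bases before its start on the minus strand and another 90 bases before it on the plus strand, and RGS18 has matches 102 and 52 bases before its start on the plus strand. The windows of RGS13 and RGS2 hold no such letters.

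Over windows from 250 bases before to 50 after the start, a match on either strand was present in 13.1% of 27305 RefSeq promoters and in 9.46% of 5591 promoters of listed protein-coding genes. Symbols of 84 of the 107 members matched a promoter, of which 10 held the letters (11.9%). They were 2 of 36 members called higher (PRKAR2B and RGS14, 5.56%) and 8 of 43 called lower (FZD5, GPR107, GPR132, GRK5, HRH4, PDE5A, RGS1 and RGS18, 18.6%). The share of all listed genes was not split by direction, so 5.56% and 18.6% have no matching background, and nothing is read from their difference. These counts describe letters only and do not say where a protein binds.

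**Figure D3:**
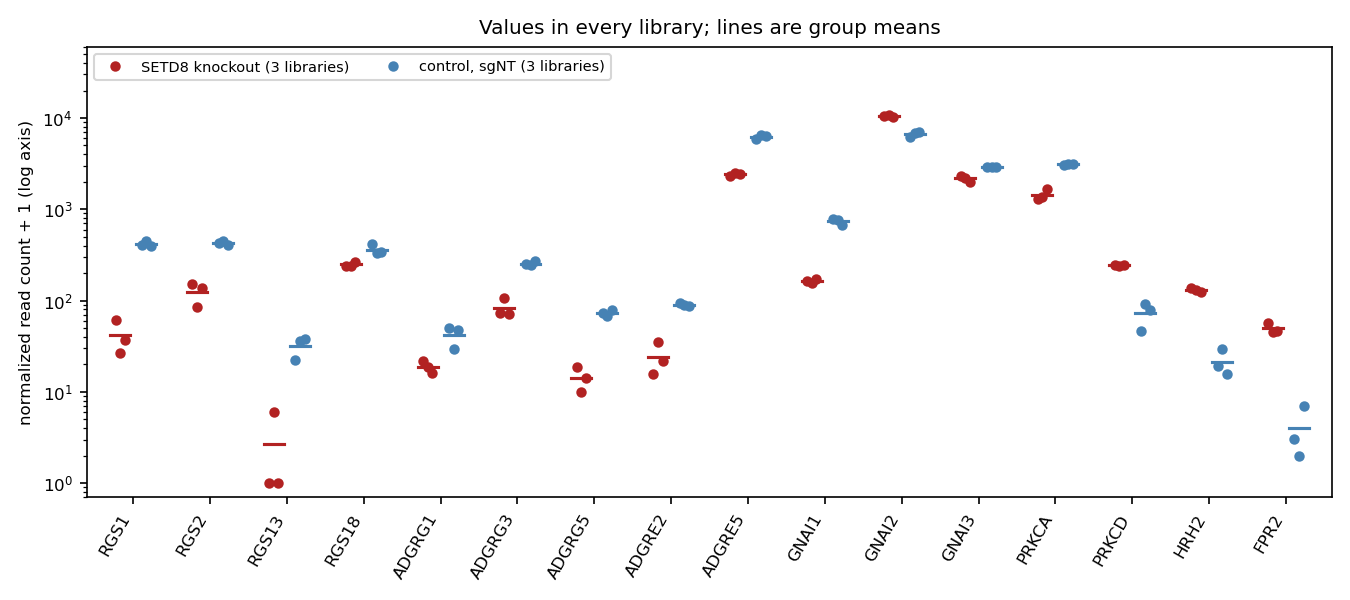
Normalized read count plus 1 on a log axis for 16 members, with each of the 3 SETD8 knockout libraries left of the 3 control libraries (sgNT) of the same gene. Points are libraries and lines are group means. No gene shown has overlapping groups, and knockout libraries are lower for all but GNAI2, PRKCD, HRH2 and FPR2.

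Of the GRK kinases and arrestins listed, 5 rose and 1 fell, most by little, where 48.1% of tested protein-coding genes were called higher. GRK3 had 1085, 1126 and 956 in knockout and 741, 597 and 694 in control cells (log2 fold change 0.64, SE 0.089, limma-trend adjusted p = 3.78e-06). ARRB1, which encodes beta-arrestin 1, had 2671, 2997 and 2939 in knockout and 2053, 2327 and 2206 in control cells (log2 fold change 0.39, SE 0.064, limma-trend adjusted p = 3.75e-05). GRK6 had 1110, 1154 and 1162 in knockout and 921, 892 and 969 in control cells (log2 fold change 0.30, SE 0.071, limma-trend adjusted p = 0.00166). All knockout libraries exceed all control libraries for the 3 genes, and the largest of these changes was 1.56-fold. ARRB2, the other ubiquitous arrestin, rose by 0.28 and GRK2, the most abundant of the kinases here, by 0.18 on the log2 scale.

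GRK5 went the other way, with 30.2, 42.7 and 42.0 in knockout and 86.9, 93.3 and 98.1 in control cells (log2 fold change -1.27, SE 0.24, limma-trend adjusted p = 0.000189). It is a low gene that lies beside RGS10 on chromosome 10, where the neighbours had a median log2 fold change of -0.70. Its neighbour-adjusted value of -0.57 was not called. The calls of GRK6 (-0.074) and ARRB2 (-0.13) also ended, and GRK2 turned to -0.21 (limma-trend adjusted p = 0.0077), while ARRB1 (0.60) and GRK3 (0.29) kept theirs. GRK2 lost its call without knockout 2 or control 1 (0.0753 and 0.11).

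The enzymes that make cyclic AMP and those that degrade it changed in both directions. ADCY3 had 1602, 1674 and 1731 in knockout and 1284, 1513 and 1405 in control cells (log2 fold change 0.26, SE 0.070, limma-trend adjusted p = 0.00543). ADCY4 had 100.1, 61.6 and 90.6 in knockout and 25.5, 58.3 and 57.5 in control cells (log2 fold change 0.88, SE 0.30, limma-trend adjusted p = 0.0218). ADCY7, the cyclase known from blood cells, had 22.9, 27.8 and 73.8 in knockout and 110.4, 74.9 and 116 in control cells (log2 fold change -1.42, SE 0.33, limma-trend adjusted p = 0.00132). ADCY3 is by far the most abundant of the 3, the groups are close for ADCY4, and knockout 3 of ADCY7 nearly reaches control 2. ADCY4 lost its call without knockout 1, knockout 3 or control 1 (limma-trend adjusted p = 0.11, 0.0799 and 0.192) and in its neighbour-adjusted value of 0.62. ADCY7 shares 2179 bases of exon with BRD7 on the other strand.

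Of 9 phosphodiesterases 5 rose and 4 fell, where 48.1% of tested protein-coding genes were called higher and 46.1% lower. PDE3B, which degrades cyclic AMP and is inhibited by cyclic GMP, had 1330, 1293 and 1346 in knockout and 798, 808 and 753 in control cells (log2 fold change 0.75, SE 0.071, limma-trend adjusted p = 1.38e-08). PDE4B, a cyclic AMP phosphodiesterase of leukocytes, had 186, 226 and 192 in knockout and 128, 146 and 143 in control cells (log2 fold change 0.53, SE 0.15, limma-trend adjusted p = 0.00788). PDE4D, its close relative, had 79.2, 128 and 145 in knockout and 34.7, 80.7 and 92.2 in control cells (log2 fold change 0.82, SE 0.29, limma-trend adjusted p = 0.0306). The groups do not overlap for PDE3B or PDE4B, and they overlap for PDE4D, where knockout 1 is below 2 control libraries.

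PDE5A, which degrades cyclic GMP, had 40.6, 49.6 and 45.8 in knockout and 90.9, 69.0 and 86.2 in control cells (log2 fold change -0.84, SE 0.24, limma-trend adjusted p = 0.00721). PDE2A, which is stimulated by cyclic GMP, had 6.25, 5.96 and 8.40 in knockout and 47.0, 49.6 and 46.6 in control cells (log2 fold change -2.64), and PDE1C, a calcium-dependent enzyme, was at -2.20. PDE2A lies near P2RY2 and P2RY6 on chromosome 11, which both rose. PDE9A, specific for cyclic GMP, was at 5.21, 27.8 and 37.4 in knockout and 0, 4.86 and 6.94 in control cells, with overlap (log2 fold change 2.40). PDE12, which is not a cyclic nucleotide phosphodiesterase but a mitochondrial RNA exonuclease, rose by 0.23, and PDE8B fell by 0.45, a call that ended under most other settings. Per kb, the listed cyclic nucleotide enzymes together were at 169.8 ± 8.12 in knockout and 127 ± 3.41 in control cells (SD, n = 3 each).

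Calls that ended in the neighbour-adjusted values were those of PDE9A (1.99), PDE4D (0.51), PDE4B (0.20), PDE12 (-0.13), PDE8B (-0.18) and PDE5A (0.034), while PDE3B stayed at 0.55. With 1 library left out, PDE4D lost its call without knockout 2 or 3 or control 1 (limma-trend adjusted p = 0.117, 0.171 and 0.344) and PDE4B without knockout 2 (0.063). PDE9A lost it without knockout 2 (log2 fold change 2.10) or control 1 (1.48), and without knockout 1 it was at 3.21. Without knockout 3, PDE9A fell under the level filter and was not tested. PDE12 lost it without knockout 1, knockout 2 or control 1 (0.0773, 0.0869 and 0.0818) and PDE8B without knockout 1 or 3 or control 1 or 2 (0.121 to 0.184).

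Subunits of protein kinase A, the kinase that cyclic AMP activates, shifted by small amounts. PRKACB, a catalytic subunit, had 1567, 1541 and 1462 in knockout and 1959, 1653 and 1931 in control cells (log2 fold change -0.27, SE 0.070, limma-trend adjusted p = 0.00322). PRKAR1A, a regulatory subunit, had 3272, 3246 and 3142 in knockout and 4877, 4651 and 4627 in control cells (log2 fold change -0.55, SE 0.055, limma-trend adjusted p = 2.77e-08). Both were lower in every knockout library than in any control library. PRKAR1B had 622, 595 and 594 in knockout and 488, 418 and 474 in control cells (log2 fold change 0.39, SE 0.094, limma-trend adjusted p = 0.00175). PRKAR2B had 800.5, 727 and 755 in knockout and 543, 508 and 657 in control cells (log2 fold change 0.43, SE 0.096, limma-trend adjusted p = 0.00101). These regulatory genes were higher in every knockout library. None of the 4 calls held in the neighbour-adjusted values, at -0.073 for PRKACB, 0.11 for PRKAR1A, -0.19 for PRKAR1B and 0.14 for PRKAR2B, and that of PRKACB also ended with a length trend removed (-0.17, limma-trend adjusted p = 0.0787).

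The listed protein kinase C genes, whose products respond to diacylglycerol or act without it, changed in their shares of the summed level. PRKCD, the delta isoform, which needs no calcium, had 246, 238 and 245 in knockout and 46.0, 91.4 and 78.3 in control cells (log2 fold change 1.80, SE 0.21, limma-trend adjusted p = 2.53e-07). PRKCA, the calcium-dependent alpha isoform, had 1302, 1354 and 1674 in knockout and 3048, 3169 and 3162 in control cells (log2 fold change -1.12, SE 0.076, limma-trend adjusted p = 5.94e-11). The groups lie wide apart in opposite directions, and both calls held in the neighbour-adjusted values (1.48 and -0.47). PRKCI, an atypical isoform of cell polarity, had 768, 847 and 715 in knockout and 1406, 1203 and 1376 in control cells (log2 fold change -0.77, SE 0.082, limma-trend adjusted p = 7.08e-08). PRKCE had 145, 164 and 135 in knockout and 236, 236 and 249 in control cells (log2 fold change -0.70, SE 0.14, limma-trend adjusted p = 0.000385). All knockout libraries of both are below the controls, but the neighbour-adjusted values of 0.085 and -0.18 were not called.

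PRKCH rose by 0.54 on the log2 scale and PRKCQ, the isoform of T cell receptor signalling, fell by 0.34. Summed per kb, the 6 listed isoforms were at 503 ± 5.75 in knockout and 732 ± 7.72 in control cells (SD, n = 3 each). PRKCA made up 25.7% of that sum in knockout and 38.3% in control cells, and PRKCD 14.2% in knockout and 2.89% in control cells. PRKCSH matches the pattern but encodes the beta subunit of glucosidase II, an enzyme of glycoprotein folding; it rose by 0.24 and its neighbour-adjusted value was -0.063, not called. PLCG1, a phospholipase C that tyrosine kinases activate, had 1642, 1887 and 1743 in knockout and 2464, 2818 and 2783 in control cells (log2 fold change -0.61, SE 0.068, limma-trend adjusted p = 1.49e-07), lower in every knockout library, and its neighbour-adjusted value was -0.048 and not called.

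**Figure D4:**
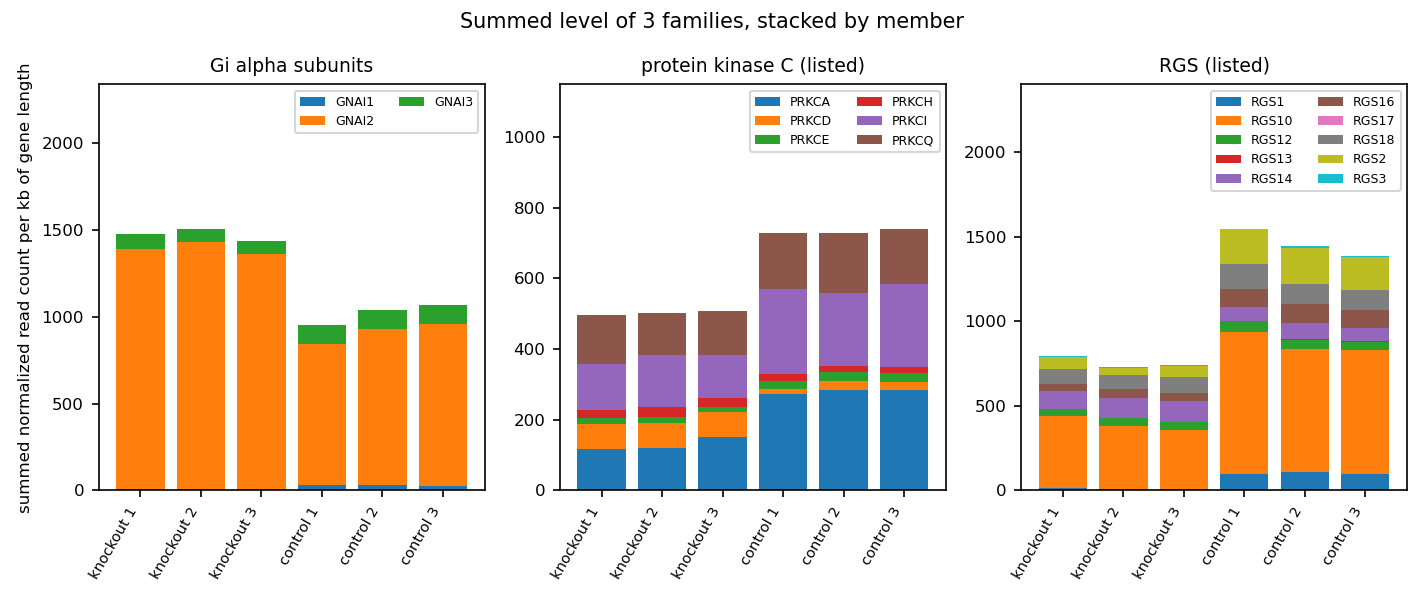
Summed normalized read count per kb of gene length in each library, stacked by gene, for the Gi alpha subunits, the listed protein kinase C isoforms and the listed RGS genes, with the 3 SETD8 knockout libraries left of the 3 control libraries. The Gi sum is higher in knockout (1471 on average, against 1017 in control), with GNAI2 as its largest component, while the protein kinase C sum (503 in knockout and 732 in control) and the RGS sum (755 in knockout and 1461 in control) are lower in every knockout library.

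Of 87 other genes that act below these proteins, written from textbook knowledge, 47 were listed and 45 tested. Of these 18 rose and 23 fell, with a median log2 fold change of -0.21, beside 0.16 for tested protein-coding genes (48.1% higher, 46.1% lower). RASGRP3, a Ras exchange factor that binds diacylglycerol, was at 139 ± 23.9 in knockout and 22.0 ± 15.0 in control cells (log2 fold change 2.80, n = 3 each), and PKIB, an inhibitor of protein kinase A, at 1832 ± 189 in knockout and 775 ± 4.19 in control cells (1.23). CAMK4, a calcium-dependent kinase, was at 8.65 ± 3.43 in knockout and 61.5 ± 7.24 in control cells (-2.75), and RAPGEF1, a Rap exchange factor, at 1243 ± 41.4 in knockout and 2552 ± 157 in control cells (-1.04).

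Of 29 symbols written as inducible by cyclic AMP, among them both CREM and its product ICER, 11 outside the pattern were listed. Of these 3 rose and 8 fell, with a median log2 fold change of -0.74. KLF2, a transcription factor, was at 26.4 ± 12.4 in knockout and 170.1 ± 28.9 in control cells (log2 fold change -2.72, n = 3 each). EGR1, an immediate early gene, was at 46.1 ± 12.4 in knockout and 140.2 ± 7.50 in control cells (-1.62), and PER1, a clock gene, at 311 ± 43.3 in knockout and 699 ± 57.1 in control cells (-1.17). ATF3, CRTC3, DUSP1, FOSB and VEGFA also fell, and CITED2, JUNB and NR4A1 rose. All 3 higher calls ended in the neighbour-adjusted values (0.087, -0.15 and 0.42), and the 8 lower calls did not. The same list holds 3 members, RGS2, PDE4B and PDE4D, whose values are given above, and these genes answer many stimuli other than cyclic AMP. Among tested protein-coding genes the median was 0.16, and nothing particular to the list follows from the difference.

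Members that lie within 1 Mb of each other formed 11 groups of 26 genes. Of the 10 groups with at least 2 tested members, 6 had all of them on one side. Beside the stretches on chromosomes 1, 16 and 10 and the ADGRE pair, these were PTGIR with C5AR2 on chromosome 19 and RGS14 with GRK6 on chromosome 5. Members moved apart in the others, such as GNG2 and PTGER2 on chromosome 14, at 0.83 and -1.22, and PRKAR1B and GPR146 on chromosome 7, at 0.39 and -1.60. P2RY13 was tested alone beside P2RY12. No matching count was made for other genes that lie close together, so nothing is read from the 6 groups on one side.

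In the authors' deposited table, 48 of the 107 members were higher and 51 lower at an adjusted p below 0.05, and 8 did not pass. Those 8 were ADGRD1, P2RY12 and S1PR3, and also GPR157, GPR20, ADCY4, PDE4D and PDE8B, which were called here. Of the members, 34 have exons that overlap those of another annotated gene, 29 of them on the opposite strand and 17 with a protein-coding partner. Whether counting used strand was not given in any source used here, so values of those genes may include reads of the partner.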

How the data were processed

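RNA was measured in 6 libraries of Kasumi-1 cells, 3 SETD8 knockout and 3 control. Per the labels' protocols, mRNA was captured on poly-T beads and sequenced as directional libraries. The submitters' processing notes name the build hg38 and, as tools, HISAT2 (an aligner) and DESeq2. Not given in the sources used here were tool versions, gene counter, annotation and strand setting. Per the file headers, the authors deposited normalized read counts, a signal that is never negative, which is the count of a gene scaled by the library's size factor. Dividing by the value of 1 read gave whole reads, within 0.001, for 100% of values in each library; for control 3 and knockout 2 that value is 0.991 and 0.993, so close to 1 that their recovered reads are less certain. Log2 fold changes of the authors were deposited beside these. Their p-values were deposited too, adjusted and not, and none in the table exceeds 0.049998.

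Of 7983 listed genes, 7516 had an average of 10 or more across libraries and were tested with limma-trend (limma 3.58.1, R 4.3.3), two-sided, on log2(value + 1), using all 6 libraries without a block. Benjamini-Hochberg adjustment was over 19860 genes, the number recovered from the adjusted p-values of the authors, with calls at adjusted p below 0.05. The fit covered the whole table, which the authors' own test had already filtered, and was tested on simulated data first. Reads in listed genes were 10966349 to 12557974 a library. Chi-square per degree of freedom between libraries of a group was 3.87 to 12.2, above counting noise, so each was kept as a sample.

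Alternatives were TMM and upper-quartile scaling, edgeR 4.0.16 and DESeq2 1.42.0 on recovered reads, different filters and pseudocounts, blocking on the replicate number, dropping each library, a minimum change, and adjustment over the table alone. The last 2 were removal of a length trend (loess, span 0.5) and subtraction, from the knockout libraries, of the median change of the other tested genes within 5 Mb where a gene had at least 5. Members and gene lists were chosen with earlier results of these data known. Values in every library are given for up to 4 called members of each role, picked by size of change among genes whose mean is 50 or more. Promoters came from RefSeq, build GRCh38.p14.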

Additional observations from a re-analysis of the deposited data

How the results depend on the processing

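The table holds genes already selected on these libraries, so the numbers of members called say little in any setting, and 3 libraries a group limit the precision of low genes. With TMM or upper-quartile scaling, edgeR, DESeq2, other filters, pseudocounts of 0.5 and 5, adjustment over the table alone or a length trend removed, the counts of receptors and parts called in each direction stayed within 1.5 times those reported. The median of all tested genes moved by -0.26 on the log2 scale with no filter on low values and by -0.14 with the neighbour trend removed. PDE8B lost its call under most of these settings (adjusted p = 0.0509 with edgeR and 0.0648 with DESeq2), and GPR157 and P2RY8 lost theirs with upper-quartile scaling (0.0552 and 0.0681).

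Leaving out each library in turn gave 20 to 25 receptors higher and 19 to 23 lower, 20 to 25 parts higher and 25 to 27 lower, and 3045 to 3272 genes higher and 3049 to 3279 lower among all tested. Of the called members, 19 lost a call at least once and 82 never did. Low members, HRH4 and PDE9A among them, fell under the level filter in some of these runs. They were not tested there, which is not counted here as a lost call. Same-numbered libraries did not deviate together (correlations 0.009, -0.003 and -0.050). The labels do not say whether the numbers pair the samples, and these correlations cannot exclude it. With the replicate block 25 receptors were higher and 24 lower, and 25 parts higher and 26 lower, PDE8B being the member lost (adjusted p = 0.0506).

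Requiring a log2 fold change of at least 1 left 9 receptors higher and 14 lower, 4 parts higher and 11 lower, and 627 of all tested genes higher and 804 lower, and KMT5A, at -0.41, was then not called. With the neighbour trend removed 12 receptors were higher and 22 lower, and 13 parts were higher and 16 lower. Of all tested genes, 2247 were then higher and 2447 lower. Log2 fold changes that turned there were those of ADGRA2 (-0.064), ARRB2 (-0.13), GNAQ (0.18), GNAS (0.27), GNB1 (-0.036), GPR107 (0.075), GRK2 (-0.21), GRK6 (-0.074), P2RY8 (-0.032), PDE12 (-0.13), PDE5A (0.034), PRKAR1A (0.11), PRKAR1B (-0.19), PRKCI (0.085), PRKCSH (-0.063), PTGER4 (-0.27), RGS18 (2.86) and RGS2 (0.15). GNAS also turned with the length trend removed (0.054). The cause was not tested, except that the neighbours of RGS18 and RGS2 are mostly the other RGS genes beside them.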
